A study of Mus musculus with 8 samples.

Results

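The mineralization genes described here are 9 genes of bone and tooth mineral, *Dmp1*, *Spp1*, *Ibsp*, *Mepe*, *Dspp*, *Runx2*, *Sp7*, *Alpl* and *Phex*, out of 50600 genes in the count table. They were picked by gene symbol. *Dmp1* was chosen because its transcript had been seen among the largest falls with the MET inhibitor capmatinib, and the other 8 were chosen by function. Every group's level entered that choice, so the differences of *Dmp1* between groups are given as a description without a test.

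Dmp1, Spp1 (osteopontin), Ibsp (bone sialoprotein), Mepe and Dspp are the SIBLING proteins, secreted acidic phosphoproteins whose genes lie side by side and which bind mineral and, through an RGD sequence, integrins. Runx2 and Sp7 (osterix) are transcription factors that act in succession when a mesenchymal precursor becomes an osteoblast. Alpl, the tissue-nonspecific alkaline phosphatase, removes pyrophosphate, a blocker of crystal growth, and Phex is a membrane peptidase of osteoblasts and osteocytes that restrains FGF23. In a malignant peripheral nerve sheath tumor (MPNST), a sarcoma of the Schwann cell lineage, these genes are outside their usual tissue, although osteopontin is made by many tumors.

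RNA was sequenced from 2 mouse MPNST cell lines in culture. NF1-MET came from a tumor of a mouse model with the alleles *Plp*-creERT tg/+, *Nf1* fl/ko and lox-stop-loxMET tg/+, in which Cre driven by the *Plp* promoter of the Schwann lineage removes *Nf1* and turns on a *MET* transgene, and its *Trp53* genotype is labelled WT. NF1-MET;sgP53, called the sgP53 line from here on, was made from it with Cas9 and a lentiviral guide against exon 4 of *Trp53* and is labelled Trp53 KO, so both lines share the *Nf1* loss, the *MET* transgene and the *Cdkn2a* deletion that the study describes. Each line received vehicle (DMSO) or 100 nM capmatinib for 24 h, with 2 libraries in each of the 4 groups. Each genotype was 1 line, so p53 loss cannot be told apart from other differences between the lines. The libraries of a group came from cells treated in duplicate, and nothing in the labels says that the duplicates were separate cultures on separate days, so the p-values measure only the spread between these samples, which may be technical.

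The libraries held 30116810 to 42781371 counts. *Trp53* itself was lower in the sgP53 line than in NF1-MET, at a mean of 98.8 against 188 counts per M library counts (CPM) in vehicle (log2 fold change -0.94, SE 0.0327, edgeR adjusted p = 2.48e-14) and 68.4 against 127 CPM in capmatinib. *Gm42418*, a gene that overlaps ribosomal RNA sequence, took 1.11% to 13.1% of a library's counts and differed between replicates, and CPM values are scaled with TMM factors (0.898 to 1.10). Of the 16 Schwann cell and neural crest markers, 10 passed the low-count filter. *Nes* (nestin) was high in all groups, with means of 428 to 463 CPM, while the defining Schwann factor *Sox10* had 20 counts over the 8 libraries.

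The 9 genes covered the whole range from among the most abundant transcripts of these cells to none. The 5 SIBLING genes shared a stretch of 270.3 kb on chromosome 5 (chr5:104170712-104441050, GRCm38, which is mm10), in the order *Dspp*, *Dmp1*, *Ibsp*, *Mepe* and *Spp1*, all on the forward strand. Among them *Spp1* and *Dmp1* were plentiful, *Dspp* had 0 to 6 counts in a library, *Ibsp* had 1 count in all 8 libraries together and *Mepe* had none. A low-count filter of at least 10 counts in at least 2 libraries was passed by 5 of the 9 genes, namely *Dmp1*, *Spp1*, *Runx2*, *Alpl* and *Phex*. Since filtered genes are not a fair sample of the 9, counts over them are given beside the share of all genes and support nothing by themselves.

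**Figure D1:**
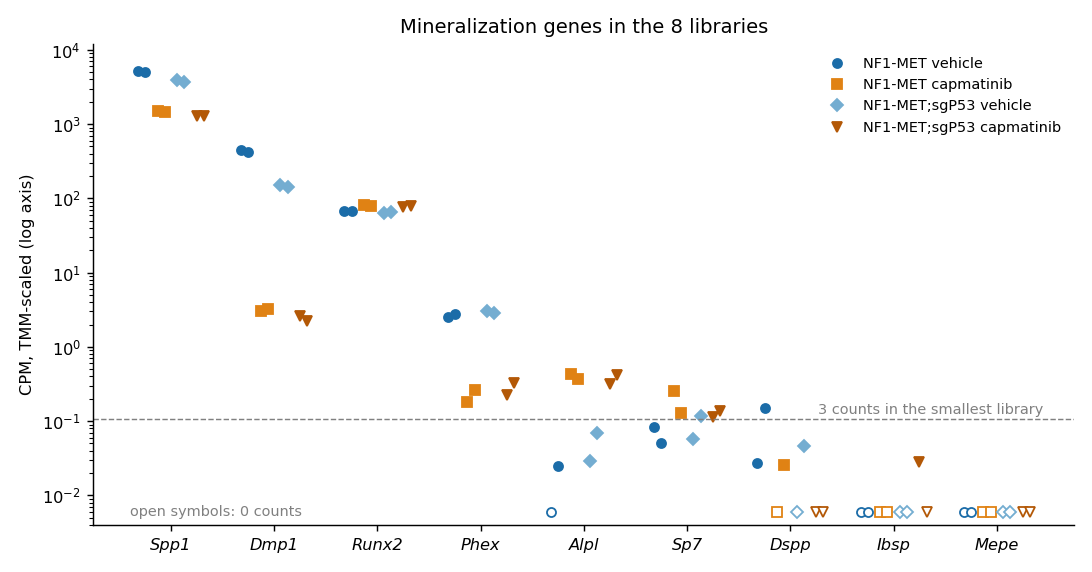
Level of each of the 9 genes in each of the 8 libraries, in TMM-scaled CPM on a log axis, with 2 points for each group and open symbols for 0 counts. *Spp1* lies at 1268 CPM or more in every library, *Dmp1* drops from at least 143 CPM with vehicle to at most 3.25 CPM with capmatinib, *Runx2* stays between 63.3 and 80.3 CPM, and *Sp7*, *Dspp*, *Ibsp* and *Mepe* lie near or under the level that 3 counts give.

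The promoter sequences of *Dmp1* and *Spp1* are shown because both transcripts fell with capmatinib. That of *Mepe* is shown as a gene of the same cluster with no counts, and that of *Phex* as a gene elsewhere in the genome that also fell. RefSeq (GRCm38.p6) gave 10 promoter windows for 7 of the 9 genes. *Dspp* and *Sp7* had none. Each sequence is the 250 bases before a RefSeq transcription start, written 5′ to 3′ on the strand of the gene. They are chr5:104202367-104202616 (+) for *Dmp1*, chr5:104434861-104435110 (+) for *Spp1*, chr5:104325079-104325328 (+) for *Mepe* and chrX:157415287-157415536 (-) for *Phex*. Capitals mark the letters TGTGGT, the core recognised by RUNX factors, read on either strand (ACCACA on the other), and, in *Dmp1* and *Spp1*, runs of at least 10 bases that both sequences hold.
Dmp1: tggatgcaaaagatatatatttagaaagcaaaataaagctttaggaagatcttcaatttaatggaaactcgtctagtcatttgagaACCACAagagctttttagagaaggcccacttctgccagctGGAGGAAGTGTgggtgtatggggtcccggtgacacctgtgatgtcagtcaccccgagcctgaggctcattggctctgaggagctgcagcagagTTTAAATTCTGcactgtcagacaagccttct
Spp1: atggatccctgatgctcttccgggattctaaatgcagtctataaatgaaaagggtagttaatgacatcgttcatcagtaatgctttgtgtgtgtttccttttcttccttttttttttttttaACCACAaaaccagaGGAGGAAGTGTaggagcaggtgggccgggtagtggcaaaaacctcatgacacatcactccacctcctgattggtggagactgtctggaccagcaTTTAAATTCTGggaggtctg
Mepe: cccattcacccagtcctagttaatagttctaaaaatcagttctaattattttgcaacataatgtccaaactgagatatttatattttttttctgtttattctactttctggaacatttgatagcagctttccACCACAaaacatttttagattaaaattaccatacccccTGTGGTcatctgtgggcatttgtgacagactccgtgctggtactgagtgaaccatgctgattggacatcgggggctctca
Phex: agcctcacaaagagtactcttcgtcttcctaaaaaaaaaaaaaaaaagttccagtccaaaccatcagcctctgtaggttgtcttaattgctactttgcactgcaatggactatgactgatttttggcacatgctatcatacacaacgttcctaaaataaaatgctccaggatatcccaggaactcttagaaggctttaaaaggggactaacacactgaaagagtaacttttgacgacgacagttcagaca

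The RUNX core stood 164 to 159 bases before the *Dmp1* start and 128 to 123 bases before the *Spp1* start, on the reverse strand in both. *Mepe* held it at both 118 to 113 bases and 80 to 75 bases before its start, and *Runx2* 80 to 75 bases before its own. The windows of *Ibsp*, *Alpl* and *Phex* did not hold these letters. Of all 32851 windows of the same length, 14% held the core on one strand or the other, so that its presence is common, and the windows of a silent gene (*Mepe*) and of an abundant one (*Spp1*) both had it. *Dmp1* and *Spp1* further shared the run GGAGGAAGTGT, found in 45 windows (0.137% of all), and TTTAAATTCTG, found in 13 windows (0.0396%). The first lay 124 to 114 bases before the *Dmp1* start and 114 to 104 bases before the *Spp1* start, and the second 31 to 21 and 20 to 10 bases before them, so the RUNX core and the runs followed one another in the same order in both genes. Windows with both runs numbered 2, those shown for *Dmp1* and *Spp1*. Each of these genes has another RefSeq window, before starts at 104197575 and 104436192, which held neither the RUNX core nor the runs. The runs were found by comparing these sequences after the expression values were known. Other motifs were searched on both strands as well. The AP-1 site TGANTCA was in 6.75% of all windows, and the TEAD site, spelled GGAATG, was in 12.6%. Neither was in any window of the 9 genes. The SP factor box GGGCGG, present in 32.7%, was found in the window of *Alpl*. The homeobox letters TAATTG, present in 7.17%, stood in the windows of *Ibsp* and *Phex*. The TATA box TATAAA, present in 12.4%, was in those of *Spp1*, *Ibsp*, *Mepe* and *Alpl*, and the short CRE site TGACGT, present in 6.47%, in that of *Ibsp*. None of these was in the *Dmp1* window shown. A match of letters is no evidence of binding.

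*Dmp1* (ENSMUSG00000029307, chr5:104202613-104214102, 6 exons) encodes dentin matrix protein 1, which osteocytes and odontoblasts secrete. NF1-MET gave 16245 and 16676 *Dmp1* counts with vehicle, and 84 and 125 with capmatinib. In the sgP53 line the counts were 5213 and 6119 with vehicle and 91 and 82 with capmatinib. The groups of the 2 treatments lay far apart in both lines, and the replicates of a group lay close together. As CPM the means were 433 ± 20.8 (SD, n = 2) and 3.15 ± 0.154 (SD, n = 2) in NF1-MET, and 147 ± 5.97 (SD, n = 2) and 2.42 ± 0.228 (SD, n = 2) in the sgP53 line. The fitted level was 138-fold lower with capmatinib in NF1-MET (log2 fold change -7.11, SE 0.05) and 60.8-fold lower in the sgP53 line (log2 fold change -5.93, SE 0.0582). Among called falls from a vehicle mean of 10 CPM or more, it had rank 3 of 4096 in NF1-MET and rank 3 of 3949 in the sgP53 line. This position is what *Dmp1* was chosen for. Per kb of exon, *Dmp1* had rank 185 of 14472 genes in NF1-MET with vehicle and rank 10400 with capmatinib. In bulk RNA, fewer cells that make a transcript cannot be told apart from less of it in each cell.

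*Spp1* (ENSMUSG00000029304, chr5:104435118-104441050) encodes osteopontin, a ligand of integrins and of CD44. It was the most abundant of the 9 genes in every library, and it fell with capmatinib in both lines while staying abundant. Its counts were 189128 and 202427 with vehicle and 41592 and 56059 with capmatinib in NF1-MET, and 135793 and 159404 with vehicle and 45051 and 46013 with capmatinib in the sgP53 line. No capmatinib library reached a vehicle library. With 2 libraries in a group such a separation says little by itself, and the share of all genes that show it was not counted. The means were 5143 ± 95.2 against 1481 ± 30.9 CPM (SD, n = 2 each) in NF1-MET, which was 3.51-fold lower (log2 fold change -1.81, SE 0.0168, edgeR adjusted p = 5.23e-38). In the sgP53 line they were 3841 ± 155 against 1273 ± 7.06 CPM (SD, n = 2 each), which was 3.02-fold lower (log2 fold change -1.59, SE 0.0234, edgeR adjusted p = 1.83e-23). Per kb of exon, *Spp1* had rank 4 of 14472 genes in NF1-MET with vehicle and rank 23 with capmatinib, and ranks 5 and 25 in the sgP53 line. A lower log2 fold change than that of *Spp1* was found in 2.03% of the genes tested in NF1-MET and in 2.34% in the sgP53 line. *Gm42793*, on the same strand, shares 309 exon bases with *Spp1*, but had only 16 to 40 counts in a library.

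The other 3 SIBLING genes were near or at 0. *Dspp* (ENSMUSG00000053268), the precursor of the dentin proteins, had 1 and 6 counts in the NF1-MET vehicle libraries, 0 and 1 with capmatinib, 0 and 2 in those of the sgP53 line with vehicle, and 0 and 0 with capmatinib. *Ibsp* (ENSMUSG00000029306), a nucleator of bone mineral, had a single count, in the sgP53 line with capmatinib. *Mepe* (ENSMUSG00000053863), an osteocyte product, had 0 counts in 290394878, which allows a level of up to 0.0103 CPM (3 counts over all libraries, for counting error only). A change of *Dspp*, *Ibsp* or *Mepe* was not detectable at this depth. The 2 SIBLING genes with high levels were thus the second in the cluster and the last, and the genes between them had almost no reads.

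*Runx2* (ENSMUSG00000039153, chr17:44495987-44814797), the first osteoblast factor, was present in all 8 libraries at similar levels. NF1-MET libraries had 2450 and 2685 counts with vehicle and 2221 and 3057 with capmatinib, and 2174 and 2811 with vehicle and 2728 and 2866 with capmatinib in the sgP53 line. Scaled, these were 67.5 and 67.3 against 80.3 and 79.6 CPM in NF1-MET, and 63.3 and 65.8 against 77.4 and 79.0 CPM in the sgP53 line. The groups did not overlap on this scale, which says little with 2 libraries in a group, while the raw counts of the NF1-MET groups did. *Runx2* was 1.17-fold higher with capmatinib in NF1-MET (log2 fold change 0.23, SE 0.0338, edgeR adjusted p = 4.18e-07) and 1.21-fold higher in the sgP53 line (log2 fold change 0.28, SE 0.0339, edgeR adjusted p = 2.21e-07). With library totals in place of TMM factors the differences were 0.04 (edgeR adjusted p = 0.537) and 0.15 (edgeR adjusted p = 0.194), neither past the threshold. That scaling moved the median of all genes to -0.18 and -0.12. Reading *Runx2* against that median largely gives back the TMM values, so it adds no separate support for a rise. A fall of *Runx2* beside that of *Dmp1* and *Spp1* was thus not seen under any scaling tried. The antisense gene *Runx2os1* overlaps its exons by 519 bases and had 26 to 37 counts in a library.

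*Sp7* (ENSMUSG00000060284), the later osteoblast factor, had 3 and 2 counts with vehicle and 7 and 5 with capmatinib in NF1-MET, and 2 and 5 with vehicle and 4 and 5 with capmatinib in the sgP53 line. It did not pass the filter. The ratio of its summed counts, capmatinib over vehicle, was 2.77 in NF1-MET with an exact 95% counting interval of 0.907 to 10, and 1.39 in the sgP53 line with an interval of 0.459 to 4.38, so a difference was not detectable at this depth. *Cbfb*, the partner that RUNX proteins need to bind DNA well, was lower with capmatinib, at 99.3 against 137 CPM in NF1-MET (log2 fold change -0.48, SE 0.0295, edgeR adjusted p = 1.01e-15) and 99.6 against 131 CPM in the sgP53 line (log2 fold change -0.40, SE 0.0386, edgeR adjusted p = 5.24e-09).

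Both enzymes were rare transcripts. *Phex* (ENSMUSG00000057457, chrX:157162075-157415312) had 93 and 112 counts with vehicle and 5 and 10 with capmatinib in NF1-MET. In the sgP53 line it had 103 and 124 counts with vehicle and 8 and 12 with capmatinib. Every vehicle library lay above every capmatinib library, which again says little by itself with 2 libraries in a group. *Phex* was 11.8-fold lower with capmatinib in NF1-MET (2.69 ± 0.174 against 0.221 ± 0.0563 CPM, SD, n = 2 each, log2 fold change -3.56, SE 0.307, edgeR adjusted p = 5.11e-12). It was 10.4-fold lower in the sgP53 line (2.95 ± 0.0666 against 0.279 ± 0.0734 CPM, SD, n = 2 each, log2 fold change -3.38, SE 0.286, edgeR adjusted p = 5.44e-10). A lower log2 fold change than that of *Phex* was found in 0.504% and 0.483% of the genes tested, which placed it further down the order of genes than *Spp1*, from a far lower level.

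*Alpl* (ENSMUSG00000028766, chr4:137741733-137796384) had 0 and 1 counts with vehicle and 12 and 14 with capmatinib in NF1-MET. In the sgP53 line it had 1 and 3 counts with vehicle and 11 and 15 with capmatinib. The capmatinib libraries were all higher than the vehicle libraries, and *Alpl* passed the filter only through them. The ratio of summed counts was 30-fold in NF1-MET, with an exact 95% counting interval of 4.92 to 1229, and 7.01-fold in the sgP53 line, with an interval of 2.43 to 27.6. Since the filter let *Alpl* in only where it was high, these ratios are a description, their intervals show only how few counts there were, and no p-value is given. The single vehicle count of NF1-MET lay in replicate 2. At its highest, *Alpl* stood at 0.434 CPM, and per kb of exon it had rank 13672 of 14472 genes in NF1-MET with capmatinib.

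Apart from *Dmp1*, chosen for its fall, and *Alpl*, which entered through its rise, *Runx2* was called higher and *Spp1* and *Phex* lower with capmatinib in both lines. Of all genes tested, 35.5% were called higher and 34.7% lower in NF1-MET, and 34.2% higher and 33.4% lower in the sgP53 line, so a call by itself was common.

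**Figure D2:**
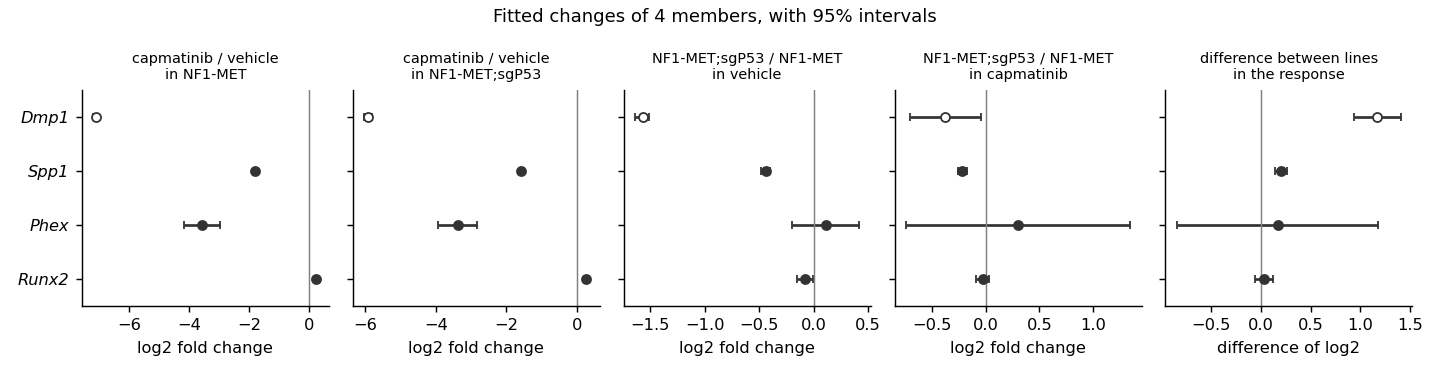
Fitted log2 changes of *Dmp1*, *Spp1*, *Phex* and *Runx2* in the 5 comparisons, with 95% intervals (bars) and a line at 0, where the x axes differ between panels. Open points are those of *Dmp1*, which were not tested, and their bars show only the spread of the fit. With capmatinib *Dmp1* lies at -7.11 and -5.93, *Phex* at -3.56 and -3.38, *Spp1* at -1.81 and -1.59 and *Runx2* at 0.23 and 0.28, and in the last panel *Dmp1* lies at 1.17 and *Spp1* at 0.20, to the right of 0.

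The lines were compared to ask what p53 loss goes with. These comparisons use the same libraries as those of capmatinib, so their values are not independent of them. In vehicle, *Dmp1* was 2.98-fold lower in the sgP53 line than in NF1-MET (147 against 433 CPM, log2 fold change -1.57, SE 0.0332, a description). *Spp1* was 1.36-fold lower (3841 against 5143 CPM, log2 fold change -0.44, SE 0.0214, edgeR adjusted p = 4.86e-12). *Phex* stood at 2.95 against 2.69 CPM (log2 fold change 0.11, 95% interval -0.20 to 0.42) and *Runx2* at 64.5 against 67.4 CPM (log2 fold change -0.08, 95% interval -0.15 to -0.01), with edgeR adjusted p of 0.674 and 0.0991. *Alpl* had 4 against 1 counts, a ratio with an exact 95% counting interval of 0.391 to 195. Of all genes, 12.3% were called lower, as *Spp1* was, and 10.9% higher. The intervals do not show that *Phex*, *Runx2* or *Alpl* were equal between the lines.

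In capmatinib the fitted differences of *Dmp1* and *Spp1* were smaller. *Spp1* was 1.16-fold lower in the sgP53 line (1273 against 1481 CPM, log2 fold change -0.22, SE 0.0195, edgeR adjusted p = 3.68e-07), a difference that was not called with library totals (-0.10, edgeR adjusted p = 0.569). *Dmp1* stood at 2.42 against 3.15 CPM (log2 fold change -0.38, SE 0.169, a description). *Runx2* and *Phex* differed by log2 fold changes of -0.03 and 0.30, and neither passed the threshold (edgeR adjusted p of 0.612 and 0.794). *Alpl* had 26 counts in each line. Of all genes, 6.34% were called lower, as *Spp1* was, and 5.94% higher. The order of *Dmp1* levels was thus NF1-MET with vehicle, the sgP53 line with vehicle, and then NF1-MET and the sgP53 line with capmatinib, which lay far closer to each other than to the vehicle groups. That of *Spp1* was the same, with each step between neighbours past the threshold where tested.

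Whether capmatinib acted on these genes to a different extent in each line was tested as an interaction over the 8 libraries. The fall of *Dmp1* was smaller in the sgP53 line by 1.17 on the log2 scale (SE 0.123), which is given as a description. The fall of *Spp1* was smaller there by 0.20 (SE 0.0296, edgeR adjusted p = 3.57e-05), and with library totals the value was 0.28 but not past the threshold (edgeR adjusted p = 0.205). For *Runx2* and *Phex* the differences were 0.03 (95% interval -0.06 to 0.12) and 0.17 (95% interval -0.85 to 1.18), with edgeR adjusted p of 0.761 and 0.897. That of *Alpl*, which entered through its rise, was -1.86 (SE 1.38) and is a description as well. It rests on few vehicle counts, and was -4.11 without NF1-MET vehicle replicate 2 and -1.07 without NF1-MET vehicle replicate 1, with a value close to the latter without vehicle replicate 2 of the sgP53 line. *Spp1* was thus called with a positive difference, beside 3.85% of all genes with a positive and 5.86% with a negative one. For both *Dmp1* and *Spp1* the lines differed more in vehicle than in capmatinib.

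The genes around the cluster were looked at to see whether the fall of *Dmp1* extended to its neighbours. Within 500 kb of the cluster the annotation listed 29 genes, of which 13 passed the filter, 11 of them outside the 9 mineralization genes. Of these 11, capmatinib libraries of NF1-MET had 3 higher and 5 lower, and those of the sgP53 line 3 higher and 2 lower, where 35.5% and 34.7% of all genes were called in NF1-MET and 34.2% and 33.4% in the sgP53 line. The counts in NF1-MET depended on the setting, with 2 higher and 2 lower by DESeq2's Wald test, 2 and 7 with library totals, 2 and 3 without capmatinib replicate 2 and 3 and 3 without vehicle replicate 1. The nearest one before *Dmp1*, *Sparcl1* (chr5:104079111-104113733), a matrix protein of the SPARC family, stood at 61.6 against 114 CPM in NF1-MET (log2 fold change -0.90, edgeR adjusted p = 7.02e-22) and at 41.8 against 54.1 CPM in the sgP53 line (log2 fold change -0.37, edgeR adjusted p = 1.69e-07). *Nudt9*, an ADP-ribose hydrolase, was also lower (log2 fold change -1.11 and -0.91). *Pkd2*, the polycystin channel gene that follows *Spp1*, was higher (log2 fold change 0.58 and 0.47), as was *Aff1*, a subunit of an elongation complex, at the far end (1.12 and 0.81). *Hsd17b11*, a steroid dehydrogenase, was lower in NF1-MET (-0.13, edgeR adjusted p = 0.0177, not called without vehicle replicate 1 at -0.11 or without capmatinib replicate 1 at -0.09) and higher in the sgP53 line (0.20, edgeR adjusted p = 0.00111), where with library totals it was not called (0.08). The 3 remaining protein-coding genes ranged from -0.14 to 0.39 in NF1-MET and from -0.02 to 0.34 in the sgP53 line. None of the 11 had a change near that of *Dmp1*, and *Spp1* had the next largest fall of the 13.

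**Figure D3:**
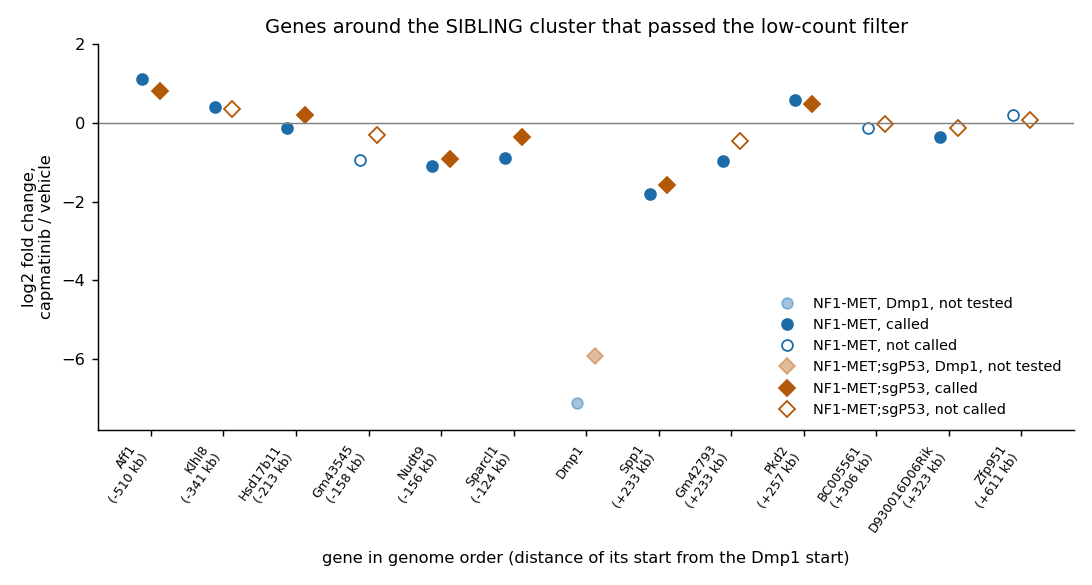
Log2 fold change with capmatinib of the 13 genes around the SIBLING cluster that passed the low-count filter, in genome order with the distance of each gene's start from that of *Dmp1* in kb. Circles are NF1-MET and diamonds the sgP53 line, filled where called, and the pale points are *Dmp1*, which was chosen for these values and not tested. *Dmp1* lies at -7.11 and -5.93, *Spp1* at -1.81 and -1.59, and the other 11 between -1.11 and 1.12.

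The lists of related genes were read against the share of all genes called with capmatinib, which was 35.5% higher and 34.7% lower in NF1-MET and 34.2% and 33.4% in the sgP53 line, and no list was tested as a group. Of 24 genes that process the SIBLING family or receive it, 19 were tested, of which 12 were higher and 5 lower with capmatinib in NF1-MET (median log2 fold change 0.60, all genes 0.00), and likewise 12 and 5 in the sgP53 line (median 0.62). *Itgav*, the integrin chain that pairs with others to bind RGD, rose from 352 to 673 CPM in NF1-MET (log2 fold change 0.92, edgeR adjusted p = 9.36e-27). *Itga8*, another RGD-binding chain, had the largest rise of the list among called genes of at least 10 CPM, from 16.7 to 289 CPM (log2 fold change 4.10, edgeR adjusted p = 1.54e-38). *Cd44*, the other osteopontin receptor, fell from 854 to 460 CPM (log2 fold change -0.91, edgeR adjusted p = 1.84e-26), and *Itga4* from 15.5 to 11.4 CPM (-0.44) in NF1-MET. In the sgP53 line *Itga4* stood at 9.03 and 9.43 CPM (log2 fold change 0.06, edgeR adjusted p = 0.546). Among processing enzymes, *Bmp1*, the protease that cleaves Dmp1 and Dspp to their active fragments, rose from 96.4 to 148 CPM (log2 fold change 0.60, edgeR adjusted p = 1.76e-18). *Fam20c*, the kinase that phosphorylates SIBLING proteins, stood at 20.3 and 20.8 CPM in NF1-MET (edgeR adjusted p = 0.836) and fell from 19.7 to 15.9 CPM in the sgP53 line (log2 fold change -0.31, edgeR adjusted p = 4.13e-04). *Fam20a*, which assists it, rose from 5.95 to 31.6 CPM.

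Of 20 genes of mineral and phosphate handling, 14 were tested, with 5 higher and 4 lower in NF1-MET (median log2 fold change 0.08) and 6 higher and 3 lower in the sgP53 line (median 0.20). Of all genes, 35.5% and 34.7% were called in NF1-MET and 34.2% and 33.4% in the sgP53 line. With library totals the split in NF1-MET was 5 higher and 6 lower and the median turned to -0.10. The sources of pyrophosphate, the substrate of Alpl, were among those that fell. *Ank*, the pyrophosphate exporter, fell from 959 to 270 CPM in NF1-MET (log2 fold change -1.84, SE 0.0235, edgeR adjusted p = 3.13e-34) and from 901 to 230 CPM in the sgP53 line (-1.97, edgeR adjusted p = 1.22e-23). *Enpp1*, which makes pyrophosphate from ATP, fell from 38.3 to 21.7 CPM in NF1-MET (log2 fold change -0.84, edgeR adjusted p = 2.64e-15) and from 38.4 to 17.6 CPM in the sgP53 line (-1.13, edgeR adjusted p = 6.74e-14). *Pdgfb*, a growth factor, and *Vdr*, the vitamin D receptor, had the largest rises among called genes of at least 10 CPM, from 6.61 to 39.5 CPM and from 5.13 to 21.7 CPM in NF1-MET.

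Of 20 listed bone matrix proteins other than the SIBLING family, 16 were tested, with 14 higher and 2 lower in NF1-MET (median log2 fold change 1.95, with 35.5% and 34.7% of all genes called) and 14 higher and 1 lower in the sgP53 line (median 1.68, with 34.2% and 33.4%). *Col1a1*, the main collagen of bone, rose from 2448 to 15396 CPM in NF1-MET (log2 fold change 2.64, edgeR adjusted p = 1.59e-43) and from 3280 to 15180 CPM in the sgP53 line (2.21, edgeR adjusted p = 9.21e-28). *Ogn* (osteoglycin) rose from 4.75 to 399 CPM in NF1-MET (log2 fold change 6.38, edgeR adjusted p = 9.00e-42), and *Fmod* (fibromodulin) from 0.200 to 12.2 CPM. *Thbs2*, a thrombospondin, fell from 463 to 247 CPM (-0.92). These collagens and proteoglycans are made by fibroblasts too, and the osteoblast-specific *Bglap* (osteocalcin) had 4 counts over the 8 libraries and *Bglap2* had 0.

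Of the 22 osteoblast transcription regulators 17 were tested, with 7 higher and 7 lower in NF1-MET (median log2 fold change -0.04), near the shares of all genes (35.5% and 34.7%), and 7 higher and 8 lower in the sgP53 line (median 0.02). Scaled by library totals, NF1-MET had 6 higher and 10 lower, with a median of -0.23. *Fosl2* rose from 325 to 578 CPM and *Mef2c* from 42.4 to 73.6 CPM in NF1-MET, while *Fosl1*, another AP-1 protein, fell from 163 to 47.1 CPM (log2 fold change -1.81, edgeR adjusted p = 1.32e-30) and *Sox9*, the factor of cartilage and neural crest, from 65.0 to 16.2 CPM (log2 fold change -2.02, edgeR adjusted p = 2.44e-26). *Dlx5* and *Dlx6*, factors that act upstream of *Sp7*, had 0 counts in all 8 libraries. Of 23 osteocyte and osteoblast signals, 17 were tested, with 9 higher and 6 lower in NF1-MET (median 0.11) and 8 higher and 6 lower in the sgP53 line (median 0.50), where with library totals NF1-MET had 7 and 6 and a median of -0.08. *Bmp2*, a ligand that induces osteoblasts, fell from 136 to 8.08 CPM in NF1-MET (log2 fold change -4.10, SE 0.0478, edgeR adjusted p = 2.69e-35) and from 62.0 to 5.44 CPM in the sgP53 line (-3.51, edgeR adjusted p = 3.73e-22). *Pdpn* (podoplanin), a marker of early osteocytes, fell from 60.8 to 25.4 CPM, *Igf1* rose from 2.23 to 44.5 CPM and *Sfrp1*, a WNT antagonist, from 4.6 to 12.2 CPM in NF1-MET.

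**Figure D4:**
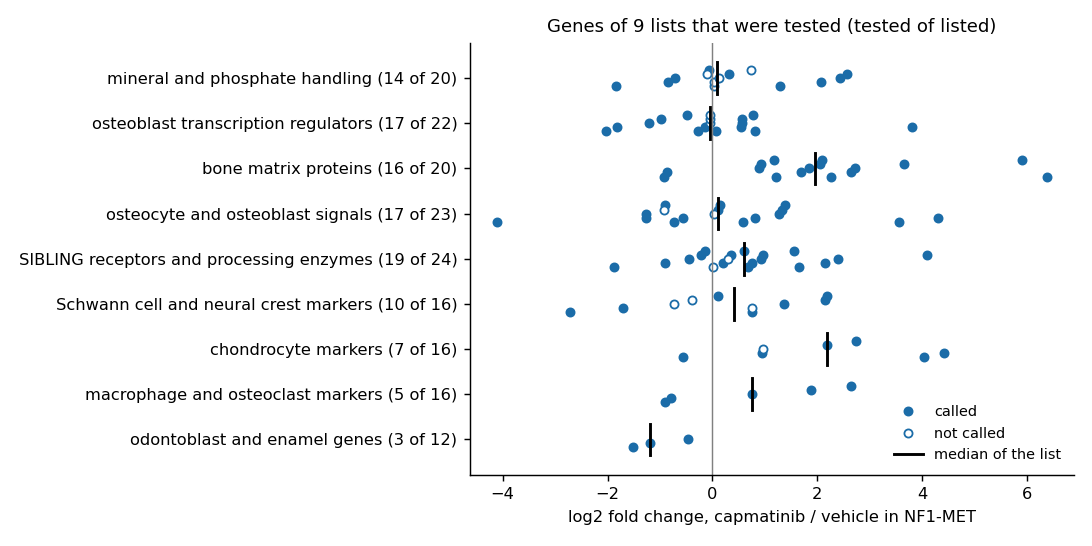
Log2 fold change with capmatinib in NF1-MET of the tested genes of 9 lists, one point for each gene, filled where called, with a black bar at the median of each list and the number tested of the number listed beside its name. The bone matrix list has its median at 1.95, the osteoblast transcription regulators at -0.04 and the SIBLING receptors and processing enzymes at 0.60.

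Markers of cell types that also use mineralization genes were read beside these results, again where 35.5% of all genes were called higher and 34.7% lower in NF1-MET and 34.2% and 33.4% in the sgP53 line. Of 16 chondrocyte markers 7 were tested, with 5 higher and 1 lower in NF1-MET and 4 and 0 in the sgP53 line. Their summed level rose from 25.2 to 25.9 CPM with vehicle to 411 to 413 CPM with capmatinib in NF1-MET and from 38.6 to 40.0 to 458 to 474 CPM in the sgP53 line, nearly all of it *Col11a1* (18.6 to 399 CPM in NF1-MET), while *Acan*, *Col9a1* and *Cnmd* had 0 counts. Of 16 macrophage and osteoclast markers 5 were tested, with 3 higher and 2 lower in both lines. They summed to 27.7 to 32.8 CPM with vehicle and 42.1 to 43.0 CPM with capmatinib, and *Adgre1*, *Itgam*, *Tyrobp*, *Fcgr1* and *Calcr* had 0 counts, beside *Spp1* at 1268 to 5210 CPM. *Ctsk* rose from 19.8 to 33.7 CPM and *Cd14* fell from 10.3 to 6.04 CPM in NF1-MET. Some calls of these marker lists rested on few reads. In NF1-MET *Sox6* stood at 0.0401 and 0.283 CPM with vehicle and capmatinib, and *Comp* at 0.0664 and 0.294 CPM. *Acp5* stood at 0.0777 and 0.518 CPM and *Csf1r* at 0.209 and 0.808 CPM. Of 12 odontoblast and enamel genes, 3 were tested, with 0 higher and 3 lower in NF1-MET and 0 higher and 2 lower in the sgP53 line. The tested genes were *Lhx6* (53.1 to 18.8 CPM in NF1-MET), *Pax9* and *Lhx8*, transcription factors of the jaw and tooth germ, while 8 others, with the enamel matrix genes *Ambn*, *Amelx* and *Enam* among them, had 0 counts. Of the Schwann cell and neural crest markers tested, 5 were higher and 2 lower in NF1-MET and in the sgP53 line. *Egr2*, the myelination factor, rose from 16.1 to 73.9 CPM and *Pmp22* from 23.1 to 103 CPM in NF1-MET, and *Gap43* fell from 18.4 to 2.84 CPM. The part of these markers in the results for *Dmp1*, *Spp1*, *Phex* and *Alpl* was not tested.

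Between the lines, 10.9% of all genes were called higher and 12.3% lower in the sgP53 line in vehicle, and 5.94% and 6.34% in capmatinib. In vehicle, 12 of the 16 bone matrix genes were higher and 1 lower in the sgP53 line (median log2 fold change 0.16), and 1 higher and 8 lower of the 17 osteoblast transcription regulators (median -0.09). The mineral and phosphate list had 3 higher and 5 lower of 14, the signals 2 higher and 6 lower of 17, and the SIBLING receptors and processing enzymes 2 higher and 7 lower of 19. In capmatinib the bone matrix list had 4 higher and 4 lower, and the transcription regulators 2 and 3. The mineral and phosphate list had 0 higher and 5 lower there, the signals 3 and 6, and the receptors and enzymes 1 and 6. Scaled by library totals, the vehicle splits were 8 and 1 for bone matrix, 1 and 4 for the transcription regulators, 3 and 2 for mineral and phosphate, 2 and 4 for the signals, and 3 and 4 for the receptors and enzymes, whose median turned from -0.04 to 0.02. In capmatinib that scaling gave 2 higher and 0 lower for bone matrix.

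Genes whose levels followed those of each of the 5 filtered genes most closely over the 8 libraries were found by the root mean square (RMS) distance of log2 CPM centred on each gene's mean. The correlations are a description over libraries that share groups. Nearest to *Dmp1* were the keratins *Krt12* (RMS distance 0.317, r = 0.997) and *Krt20* (0.407, r = 0.996) and the neuronal pentraxin *Nptx1* (0.362, r = 0.995). *Krt12* went from 10.1 to 0.0441 CPM with capmatinib in NF1-MET and from 3.29 to 0.0284 CPM in the sgP53 line, with the lower vehicle level in the sgP53 line that *Dmp1* also had. *Krt20* went from 63.7 to 0.803 and from 19.4 to 0.406 CPM, and *Nptx1* from 39.6 to 0.443 and from 16.4 to 0.195 CPM.

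Nearest to *Spp1* were *Lgals7* (0.026, r = 1.000), *AA467197* (0.055, r = 0.998) and *Rbm38* (0.069, r = 0.997). *Lgals7*, a galectin, stood at 91.2 and 26.8 CPM in NF1-MET and at 67.4 and 22.3 CPM in the sgP53 line. Nearest to *Phex* were *F2rl1*, the receptor PAR2 (0.167, r = 0.996), *Vmn2r79* (0.225, r = 0.991) and the carbonic anhydrase *Car12* (0.228, r = 0.991). *F2rl1* went from 5.64 to 0.534 CPM in NF1-MET and from 7.90 to 0.655 CPM in the sgP53 line. Nearest to *Runx2* were *Atxn1l*, *Hltf* and *Tug1*, at distances of 0.023, 0.024 and 0.025, all with shifts as small as its own. Nearest to *Alpl*, in which all 4 vehicle libraries had 0 to 3 counts, were *Hdac11*, *Tent5b* and *Unc5c*, at distances of 0.134, 0.153 and 0.212. None of the nearest genes of one of the 5 was another of the 9.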

How the data were processed

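The authors made poly(A) RNA libraries, sequenced both ends, trimmed reads with Trim Galore 0.4.2, checked them with FastQC 0.11.7 and mapped them to mm10 with STAR 2.5.2b after demultiplexing with bcl2fastq 1.9.0 (versions from the submitters' processing notes). The deposited values are raw counts per gene from STAR for 50600 genes in 8 libraries (30116810 to 42781371 counts), not normalized. The strand setting and the annotation release are not given in the sources used here. Whether the NF1-MET libraries came from an empty-vector line, as the column labels could be read, was not stated either. Positions came from GENCODE release M21 (99.56% of identifiers matched) and promoter sequences from RefSeq on GRCm38.p6.

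Analyses used R 4.3.3, edgeR 4.0.16 and DESeq2 1.42.0. A gene was kept (14497 were) if 2 or more of the 8 libraries held 10 or more counts of it, and tested in a comparison if 2 or more of the libraries compared had any. Libraries were scaled with TMM factors and tested with edgeR's legacy quasi-likelihood F-test, with p-values adjusted by Benjamini-Hochberg across the tested genes and calls at 0.05. The SE is the absolute log2 fold change over the square root of F. Genes were tested in the libraries of each comparison only, and the interaction over all 8. Mean CPM values carry the SD of 2 libraries. Log2 CPM had a prior count of 2, and exon length was the union of exons. Count intervals are exact conditional binomial and, like the limit of 3 counts, cover counting error only, since reads had no molecular identifiers. Between replicates the median squared difference of counts was 1.54 to 1.78 times sampling noise, while its mean was 5.91 to 216 times.

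The 9 genes, the 9 lists and the rules were chosen with earlier results of these data known. The text names, for each list, those 2 called genes of at least 10 CPM that rose most in NF1-MET and those 2 that fell most, the genes that a member's role concerns (*Cbfb*, *Fam20c*, *Enpp1*, *Bmp1*, *Cd44*, *Itgav*, *Col1a1*, *Bglap*), filtered genes within 500 kb of the cluster and the 3 nearest profiles of each filtered member. *Trp53* was named as the check of the labels and *Gm42418* for its share of the counts. Named outside this rule, after their values were seen, were *Sox10*, *Nes*, *Bglap2*, *Pax9*, *Lhx8*, *Sox6*, *Comp*, *Acp5*, *Csf1r*, *Gm42793*, *Runx2os1* and genes at 0 counts.

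On simulated counts with 100 changes of each size, the test recovered 86% to 97% of log2 changes of 1 and 99% to 100% of those of 2, and false calls were 1.99% to 3.14% of calls. In the simulation few genes changed, evenly up and down, none of them rare, and all genes had the same small replicate spread. With capmatinib the data had far more changed genes, and their replicate noise was uneven, so these rates need not hold for them. Alternatives were DESeq2's size factors, library totals without TMM factors, scaling without *Gm42418*, DESeq2's Wald test, bias-adjusted quasi-likelihood, no filter, a stricter filter, a replicate block, all 8 libraries in 1 model and each library left out.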

Additional observations from a re-analysis of the deposited data

Results flagged for a closer look

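The response to capmatinib differed between the lines, by the interaction term, for the following genes, given here as the response in the sgP53 line minus that in NF1-MET on the log2 scale (edgeR adjusted p under the threshold). Among the mineralization genes this was *Spp1* (0.20, edgeR adjusted p = 3.57e-05). *Dmp1* is not counted among them, since its fall led to its choice, and its difference of 1.17 is a description. In genes of mineral handling the values were -0.14 for *Ank*, -0.31 for *Enpp1*, -0.54 for *Vdr* and 0.59 for *Pdgfb*. Regulators and signals gave 0.55 for *Sox9*, 0.47 for *Mef2c*, 0.58 for *Bmp2* and 0.20 for *Pdpn*. Matrix genes gave -0.44 for *Col1a1*, -1.67 for *Ogn*, -0.69 for *Col11a1* and 0.39 for *Thbs2*. Receptors, enzymes and markers gave 0.39 for *Itga8*, 0.49 for *Itga4*, -0.34 for *Fam20c* and -0.36 for *Egr2*. Around the cluster the values were -0.33 for *Aff1*, 0.32 for *Hsd17b11*, 0.18 for *Nudt9*, 0.51 for *Sparcl1* and -0.13 for *Pkd2*, and near the *Alpl* profile -0.85 for *Tent5b* and -0.83 for *Unc5c*. With library totals in place of TMM factors the difference was not past the threshold for *Spp1*, *Vdr*, *Ank*, *Enpp1*, *Pdpn*, *Egr2*, *Fam20c*, *Col1a1*, *Aff1*, *Hsd17b11*, *Nudt9*, *Pkd2* or *Tent5b*. It was also lost without at least 1 of the 8 libraries for *Ank*, *Enpp1*, *Pdpn*, *Itga4*, *Fam20c*, *Nudt9*, *Pkd2* and *Tent5b*, each on the same side of 0. Of all genes tested, 3.85% were called with a positive and 5.86% with a negative difference.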

How the results depend on the processing

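Counts of members called are given here only to compare settings, since they take in *Dmp1*, chosen for its fall, and *Alpl*, which passed the filter only where it was high. With TMM scaling they were 5 in each capmatinib comparison (of all genes, 35.5% were called higher and 34.7% lower in NF1-MET, and 34.2% and 33.4% in the sgP53 line), 2 between the lines in vehicle (10.9% and 12.3%), 1 in capmatinib (5.94% and 6.34%) and 2 in the interaction (3.85% and 5.86%). The stricter filter removed *Alpl* and *Phex* before testing, which left 3 called in both capmatinib comparisons. Library totals left 0 called between the lines in capmatinib and 1 in the interaction, and turned *Runx2* between the lines in capmatinib to 0.09. They also moved *Dmp1* in NF1-MET to -7.30.

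Genes called between the lines in vehicle numbered 3355, against 2023 with library totals (1280 higher, 743 lower, where TMM gave 1580 and 1775) and 1933 with DESeq2's Wald test. In capmatinib they were 1778, against 666 with library totals (537 higher, 129 lower), 870 with DESeq2 and 1070 without the filter. For the interaction they were 1407 (558 higher, 849 lower), against 315 with library totals and 894 with DESeq2. With library totals most were higher (192), where TMM had more lower. The cause was not tested.

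Signs turned for some values that were not called. With library totals these were *Fam20c* in NF1-MET (-0.17) and, in the sgP53 line, *Itga4* (-0.06) and *Zfp951* (-0.07). When each library was left out, the range crossed 0 for *Alpl* between the lines in capmatinib (-0.33 to 0.07), *Phex* in the interaction (-0.10 to 0.49), *Fam20c* in NF1-MET (-0.02 to 0.06) and, in the sgP53 line, *Itga4* (0.00 to 0.12), *Gm43545* (-0.75 to 0.04), *BC005561* (-0.17 to 0.17) and *Zfp951* (-0.03 to 0.14). Of 2203 recomputed values of named genes, 2098 kept direction and side of the threshold. A call was lost by 84 and gained by 6, and 14 turned sign. The remaining 1, given above for *Dmp1*, moved by more than the replicate spread. Only *Dmp1*, in capmatinib against vehicle, was held against that spread. All other values were sorted by sign and threshold alone, so larger moves among them were not counted. For genes outside the members, the values cover capmatinib against vehicle and called interactions, but not the differences between the lines. Leaving out 1 library leaves 1 library in its group, so only fitted values of the members are given. With capmatinib in NF1-MET these ranged from -1.83 to -1.79 for *Spp1*, 0.22 to 0.24 for *Runx2* and -3.88 to -3.37 for *Phex*. The fitted log2 value of *Alpl*, which rests on the prior count, ranged from 3.78 to 6.76 there. It ranged from 2.32 to 3.49 in the sgP53 line and from -4.11 to -1.07 in the interaction, with the extremes set by vehicle libraries.

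Whether the replicate numbers pair the samples is not known, since the labels name no shared batch. Same-numbered deviations correlated by -0.103 to 0.217, and the main fits used no pairing. With the replicate number as a block, 10141, 9866, 3994, 1777 and 1524 genes were called in the 5 comparisons, and the calls of the members were unchanged in number (5, 5, 2, 1 and 2). With the crossed pairing in capmatinib, chosen after seeing the data, 2051 genes and 1 member were called. With 2 libraries in a group and 0 to 15 counts of *Alpl*, *Sp7* or *Dspp* in a library, depth limits what can be seen of these genes.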
